A study of Homo sapiens with 72 samples.

Results

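The messenger RNA of IGROV1 cells was compared between the wildtype line and 2 clones carrying mutations in both TUT4 and TUT7. IGROV1 is an established human ovarian carcinoma line, described in the labels as LIN28A positive. The members were the 12 poly(A) RNA libraries of this line among the 72 samples of the series, 4 in each of 3 groups. The wildtype group was the unmutated control line at passages 6 to 9, and it is not described as a clone taken through the editing steps. The groups mutant_1 and mutant_2 were each taken as 1 clone, made with paired Cas9 D10A nickases aimed at TUT4 exon 12 and TUT7 exon 14, upstream of the exons for the catalytic domain, and were collected at passages 2 to 5 and 3 to 6. All groups were grown in the same RPMI-1640 medium with serum. The 4 libraries of a group carry successive passage numbers, and p-values measured the spread between these libraries. The titles name the mutant groups, and the study describes 2 independent mutant clones of this line. A clone label counts up with the replicate number, so from the labels it is uncertain whether the 4 libraries of a mutant group came from 1 clone. What the mutations changed and what distinguishes a clone grown from few cells from its parental population cannot be told apart here, and both clones were set against the same 4 wildtype libraries. Passage number also went with mutation. It did not overlap between wildtype and mutant_1, where the 2 cannot be told apart, and overlapped with mutant_2 at passage 6 alone.

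TUT4 and TUT7 are terminal uridylyltransferases, enzymes that add uridine to the 3′ ends of RNA. They tail mature miRNAs and, together with the RNA-binding protein LIN28A, the precursor of the growth-restraining let-7 miRNAs, and they mark mRNAs with shortened poly(A) tails for decay by exonucleases such as DIS3L2. The genes that could follow a change in their activity therefore include direct mRNA substrates, targets of miRNAs, and everything downstream of either.

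Levels are given as CPM, the reads on a gene scaled to a common library size with the TMM factors of edgeR and not corrected for gene length. Fold changes and their standard errors are on the log2 scale, mutant over wildtype. A gene was called when its adjusted p from the quasi-likelihood test of edgeR, with Benjamini-Hochberg adjustment over all 13932 genes tested, was below 0.01, and "rose" and "fell" are used only of called genes. A gene was called shared when it passed in both clones with the same sign. It was called changed in a single clone when it passed in that clone, did not pass in the other, and the clones also differed from each other in the test.

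TUT4, listed under its older symbol ZCCHC11 (chromosome 1, 52423275 to 52553463 in GRCh38.p14), was at 69.7, 82.5, 80.5 and 76.9 CPM in the wildtype libraries. It was at 31.9, 33.5, 31.2 and 11.9 CPM in mutant_1 and at 30.2, 30.2, 27.1 and 17.5 CPM in mutant_2. All 8 mutant libraries lay below all 4 wildtype libraries, and TUT4 RNA fell by 1.5 ± 0.26 (SE) in mutant_1 and by 1.56 ± 0.26 in mutant_2 (edgeR adjusted p = 0.00054 and 0.00039). TUT7, listed as ZCCHC6 (chromosome 9, 86287733 to 86354410), was at 27.8, 37.5, 37.2 and 31.7 CPM in wildtype cells. It was at 19.8, 22.8, 21 and 9.76 CPM in mutant_1 and at 14, 14.1, 11.9 and 8.83 CPM in mutant_2. TUT7 RNA fell by 0.86 ± 0.23 and by 1.45 ± 0.23 (edgeR adjusted p = 0.00909 and 0.00024), and the mutant_1 call was lost when any wildtype library, or most single mutant libraries, were left out (log2 values -0.94 to -0.80). Reads were counted over the whole gene, so these values describe how much RNA was left and not the edited sequence or the protein.

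The ovarian identity of the line was checked against marker genes. PAX8, the transcription factor of Müllerian epithelium, averaged 635, 832 and 518 CPM in wildtype, mutant_1 and mutant_2, and SOX17 averaged 167, 166 and 168 CPM. Several other defining ovarian markers were nearly silent in every group, with WFDC2, EMX2 and MSLN at 0.533 CPM or less and WT1 at 0.946 CPM or less. Of 14 ovarian markers in the table, 9 averaged over 1 CPM in wildtype and 6 in each mutant group, and their summed level was 2075 to 2344, 2018 to 2934 and 1010 to 1493 CPM in the 3 groups. FOLR1, a folate receptor of ovarian carcinoma, averaged 621, 527 and 134 CPM and fell in mutant_2 alone, or in both clones without the mutant libraries numbered 4. The mucins MUC16 (2.1, 0.326 and 0.0656 CPM) and MUC1 (1.66, 0.368 and 0.412 CPM) fell in both, as did KRT8 and EPCAM, described below. LIN28A averaged 225, 210 and 260 CPM and was not called in either clone. Other tissues were represented by 8 markers each. Those of prostate summed to 16 to 29.4, 15.3 to 30.0 and 25.2 to 30.5 CPM, with HOXB13 averaging 5.59, 15.9 and 19.8 CPM and ACPP 11.8, 4.35 and 3.46 CPM. Those of fibroblasts summed to 17.1 to 20.6, 18.5 to 22.9 and 26 to 34.6 CPM. Of these, COL1A1 averaged 13.1, 8.14 and 21.5 CPM, PDGFRA 4.6, 7.67 and 6.69 CPM, and PDGFRB 0.845, 3.55 and 2.5 CPM. Those of leukocytes and blood summed to 22.7 to 31.4, 11.1 to 21.0 and 9.92 to 19.8 CPM, mostly from CD68 at 26.7, 13.8 and 12.3 CPM. The part of these markers in the results was not tested. The markers KLK2, KLK3 and FOLH1 of prostate, DCN and FAP of fibroblasts and CD3E of T cells were listed at 0 reads in all 12 libraries.

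The 12 libraries held between 7729672 and 25054688 reads on genes. Log2 CPM correlated within a group at 0.991 to 0.995, except for the libraries numbered 4 of the mutants, which reached 0.952 to 0.962 in mutant_1 and 0.969 to 0.979 in mutant_2. When genes were split into 4 equal groups by exon length, the shortest group stood 0.30 and 0.21 above the other libraries of their group on the log2 scale in those 2 libraries and the longest group 0.32 and 0.24 below them, while the other libraries stayed closer to 0 throughout. Mutant libraries numbered 4 were left out of the reference for the other mutant libraries. The mutant_1 library numbered 4 was also the shallowest. Counts below are therefore also given without these 2 libraries, and their part in any single result was not tested. These 2 libraries were the latest passages of their groups, 5 in mutant_1 and 6 in mutant_2. Without them no mutant passage overlapped with wildtype, so passage and mutation cannot be told apart in those counts.

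**Figure D1:**
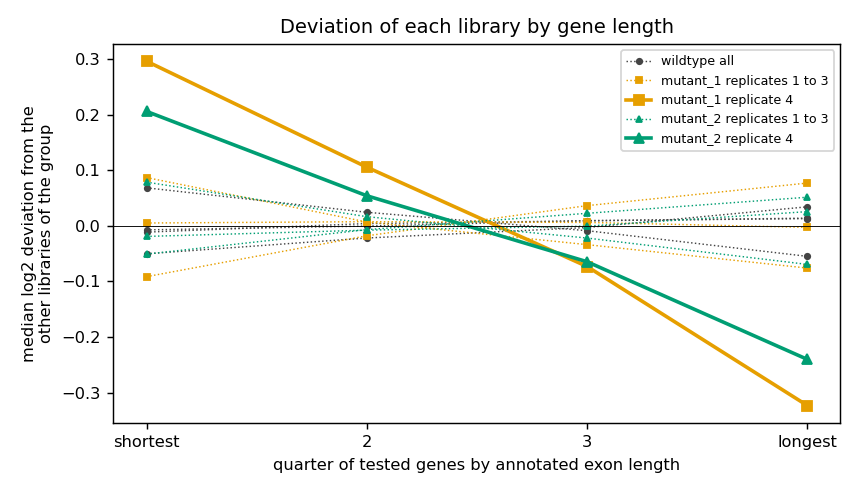
Median log2 deviation of genes from the other libraries of the group in 4 groups of genes by exon length, for each of the 12 libraries. Mutant libraries numbered 4 were left out of the reference for the other mutant libraries. The mutant_1 and mutant_2 libraries numbered 4 run from above 0.2 in the shortest genes to below -0.2 in the longest, and the other libraries stay near 0.

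In mutant_1, 1784 genes rose (12.8% of those tested) and 2090 fell (15%). In mutant_2, 1838 rose (13.2%) and 2019 fell (14.5%), so 27.8% and 27.7% of the tested genes passed in either direction. In both clones together 926 genes rose (6.65%) and 1245 fell (8.94%), and 128 (0.919%) passed with opposite signs, a count that was 70 to 85 when any single wildtype library or the mutant_2 library numbered 3 was left out. Changes in mutant_1 alone were called for 709 genes (5.09%), 310 higher (2.23%) and 399 lower (2.86%). In mutant_2 alone they were called for 705 (5.06%), 377 higher (2.71%) and 328 lower (2.35%). A further 866 (6.22%) and 853 genes (6.12%) passed in mutant_1 or mutant_2 but could not be distinguished between the clones, and 8500 genes (61%) passed in neither. Set directly against each other, the clones differed for 2309 genes (16.6%), 1038 higher in mutant_1 (7.45%) and 1271 lower (9.12%). Without both mutant libraries numbered 4 the shared counts were 1659 higher (11.7% of the 14132 genes tested in that fit) and 2116 lower (15%), and 912 of the 926 higher and 1243 of the 1245 lower genes kept their class.

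All 8 mutant libraries lay above all 4 wildtype libraries for 1687 genes (12.1%), 901 of them among the shared increases (6.47%), and below them for 2056 (14.8%), 1232 of them among the shared decreases (8.84%).

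The shared decreases were deeper than the shared increases. At 1 log2 unit or more in both clones there were 805 lower (5.78%) and 451 higher genes (3.24%). A fall of at least 3 log2 units in both clones was seen for 286 genes (2.05%) and a rise of that size for 72 (0.517%), and at 5 log2 units the counts were 120 (0.861%) and 20 (0.144%). Near-complete loss was seen for 61 genes (0.438%), which averaged at least 5 CPM in wildtype and under 0.5 CPM in both clones, and 6 genes (0.0431%) did the reverse. ARMCX5, BASP1P1, DSEL, S1PR1 and SOX3 had no read in any of the 8 mutant libraries. The reverse group was AFF3, BTBD11, GBP1, HBE1, OLFM1 and SMARCA2. In RNA from whole cultures, fewer cells carrying a transcript and less of it per cell cannot be told apart.

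**Figure D2:**
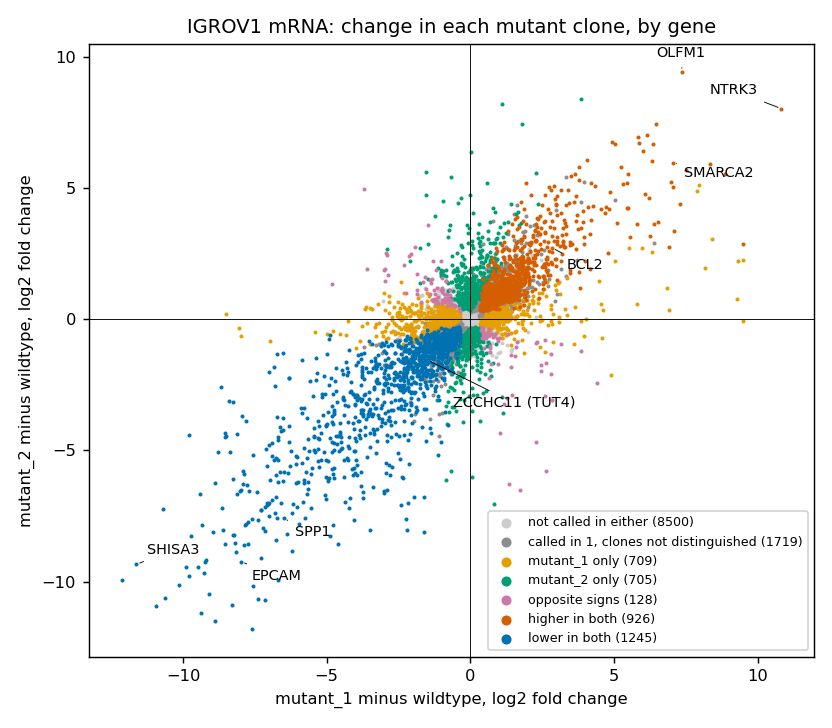
Log2 fold change against wildtype in mutant_1 (horizontal) and mutant_2 (vertical), 1 point per tested gene, coloured by class. Shared decreases extend further from 0 than shared increases, and most single-clone genes lie along the axes. Both axes share the 4 wildtype libraries.

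EPCAM, an epithelial adhesion molecule, was at 78.1, 69.2, 84.6 and 75.2 CPM in wildtype cells. It was at 0.463, 0.315, 0.211 and 0 CPM in mutant_1 and at 0, 0.15, 0.146 and 0.202 CPM in mutant_2. The groups did not overlap, and pooled reads were 252-fold lower in mutant_1 and 644-fold lower in mutant_2 (edgeR adjusted p = 1.94e-09 and 9.35e-10). SHISA3, which encodes an antagonist of Wnt and FGF receptor maturation, was at 272, 198, 175 and 162 CPM in wildtype cells. It held 3 reads in all of mutant_1 and 23 in all of mutant_2 against 14483 in wildtype. The pooled ratio was 3579 in mutant_1, with a 95% counting interval of 1225 to 17360, and 671 in mutant_2.

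BMP2, a secreted morphogen, ranged from 53.2 to 106 CPM in wildtype and reached at most 0.146 CPM in either clone, 1034-fold and 744-fold lower in pooled reads. PKP3, a desmosomal plaque protein, lay between 60.2 and 72.7 CPM in wildtype and at or below 0.146 CPM in every mutant library. ST14, the membrane serine protease matriptase, went from 24.1 to 32.9 CPM in wildtype to at most 0.211 CPM in the mutants, which was 250-fold and 431-fold lower. BMP2, PKP3 and ST14 were called in both clones, with edgeR adjusted p at or below 1.42e-09. Where a group held almost no reads, a fitted fold change depends on the prior count, so folds of pooled reads are given.

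OCIAD2 had 2391 reads in wildtype (33.3 to 35 CPM), none in mutant_1 and 2 in mutant_2. With a floor of 3 reads over the group, OCIAD2 was at least 591-fold lower in mutant_1. LPAR3, a receptor for lysophosphatidic acid, lay at 15.5 to 20.7 CPM in wildtype and at 0.0525 CPM or less in the clones. MFAP2, a microfibril protein of the matrix, showed the same picture at 18 to 23.4 CPM against 0.146 CPM or less. RHOD, a small GTPase of endosomes, fell 310-fold and 535-fold in pooled reads, and TM4SF1, a tetraspan membrane protein, fell 428-fold and 280-fold. POU3F3, a neural and renal transcription factor, and CCBE1, a secreted factor of lymphatic growth, completed the 12 and were at or below 0.105 CPM in all mutant libraries, against 21.7 to 35.2 and 13.5 to 22.3 CPM in wildtype.

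The promoters of these 12 genes were read for the letters CACCTG and CAGGTG, the same E-box read on either strand, which zinc finger repressors of the ZEB and SNAI families are known to bind. RefSeq promoter windows of 300 bases, from 250 before to 50 after the start that the RefSeq table uses, were matched for 8 of them, with BMP2, PKP3, EPCAM and ST14 unmatched, and 5 of the 8 held the motif, against 1 of 8 for the leading shared increases and 18.5% of the 10907 tested genes with a window. Of the 45 genes of near-complete loss with a window, which include these 8, 15 (33.3%) held it. Among the genes that did the reverse it was 1 of 5 (20%). Differences between these shares were not tested. These are counts of letters and not of bound sites. The 5 windows that hold the motif are shown, and the other 3 are not. They are written 5′ to 3′ on the gene's strand in GRCh38.p14, with the motif in capitals. They are OCIAD2 at chr4:48906779-48907078 (minus strand), LPAR3 at chr1:84893157-84893456 (minus), MFAP2 at chr1:16981534-16981833 (minus), RHOD at chr11:67056597-67056896 (plus) and CCBE1 at chr18:59697374-59697673 (minus), which lies inside the annotated span of its gene.
OCIAD2: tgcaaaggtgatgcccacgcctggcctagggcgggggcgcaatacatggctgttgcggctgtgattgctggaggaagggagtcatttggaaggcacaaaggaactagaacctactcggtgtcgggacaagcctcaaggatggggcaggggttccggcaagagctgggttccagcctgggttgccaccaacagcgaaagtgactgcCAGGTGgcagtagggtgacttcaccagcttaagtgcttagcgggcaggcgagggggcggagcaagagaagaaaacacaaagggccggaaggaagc
LPAR3: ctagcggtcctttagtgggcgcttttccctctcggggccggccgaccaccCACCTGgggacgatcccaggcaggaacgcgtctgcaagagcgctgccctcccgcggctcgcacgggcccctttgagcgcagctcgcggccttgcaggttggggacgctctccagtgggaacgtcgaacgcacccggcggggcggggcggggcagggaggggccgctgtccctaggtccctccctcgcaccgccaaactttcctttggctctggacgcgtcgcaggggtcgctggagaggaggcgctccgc
MFAP2: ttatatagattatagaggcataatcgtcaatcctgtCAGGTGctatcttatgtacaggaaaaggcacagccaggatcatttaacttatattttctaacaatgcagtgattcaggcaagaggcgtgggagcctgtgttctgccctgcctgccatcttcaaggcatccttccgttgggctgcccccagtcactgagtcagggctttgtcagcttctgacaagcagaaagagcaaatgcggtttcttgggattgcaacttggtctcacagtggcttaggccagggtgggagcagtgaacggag
RHOD: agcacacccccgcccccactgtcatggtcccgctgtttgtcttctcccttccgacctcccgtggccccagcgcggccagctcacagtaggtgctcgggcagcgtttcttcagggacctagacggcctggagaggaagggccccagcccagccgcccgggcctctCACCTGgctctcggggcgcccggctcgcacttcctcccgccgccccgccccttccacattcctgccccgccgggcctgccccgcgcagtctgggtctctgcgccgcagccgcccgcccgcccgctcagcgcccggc
CCBE1: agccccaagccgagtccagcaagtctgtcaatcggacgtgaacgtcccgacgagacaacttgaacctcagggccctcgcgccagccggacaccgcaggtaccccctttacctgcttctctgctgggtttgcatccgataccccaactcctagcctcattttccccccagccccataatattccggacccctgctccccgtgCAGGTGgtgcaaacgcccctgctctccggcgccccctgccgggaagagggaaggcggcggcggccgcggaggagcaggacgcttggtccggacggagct

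Every motif shown occurs a single time in its window. The genes of near-complete loss had a median of 22 CG dinucleotides in their windows, against 26 over all tested genes. This difference was not tested.

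NTRK3, the receptor of neurotrophin-3, had no read in the 4 wildtype libraries and 10.1 to 15.5 CPM in mutant_1 and 1.31 to 2.56 CPM in mutant_2. With the floor of 3 reads it was at least 333-fold higher in mutant_1 and at least 44.1-fold higher in mutant_2. SMARCA2, the BRM ATPase of SWI/SNF chromatin remodelling, was at 0.103, 0.174, 0.265 and 0.26 CPM in wildtype. It was at 26.4, 25.7, 26.2 and 30.2 CPM in mutant_1 and at 12.5, 12.1, 11.2 and 15.2 CPM in mutant_2. The libraries of each group were tightly spaced, and SMARCA2 rose by 7.05 ± 0.22 and 5.96 ± 0.22 (edgeR adjusted p = 1.55e-10 and 5.74e-10).

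CA8, a catalytically inactive carbonic anhydrase relative, was at 2.88, 3.02, 3.51 and 3.85 CPM in wildtype. It was at 424, 491, 480 and 696 CPM in mutant_1 and at 53.2, 58.6, 68.3 and 95.9 CPM in mutant_2. CA8 rose in both, and its level also differed between the clones by 2.92 (edgeR adjusted p = 4.2e-07). HBE1, the embryonic epsilon globin, rose 85.2-fold and 179-fold in pooled reads, and AFF3, a nuclear elongation factor relative, rose 68.2-fold and 123-fold. The other leaders were OLFM1, a secreted olfactomedin, EYA4, a transcriptional coactivator, DNER, a Notch-related membrane protein, DGKK, a diacylglycerol kinase, BTBD11, CSH1 and GAS1, a surface protein of hedgehog signalling. CSH1, placental lactogen, has a near-identical neighbour in CSH2, so reads may have been split between them.

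**Figure D3:**
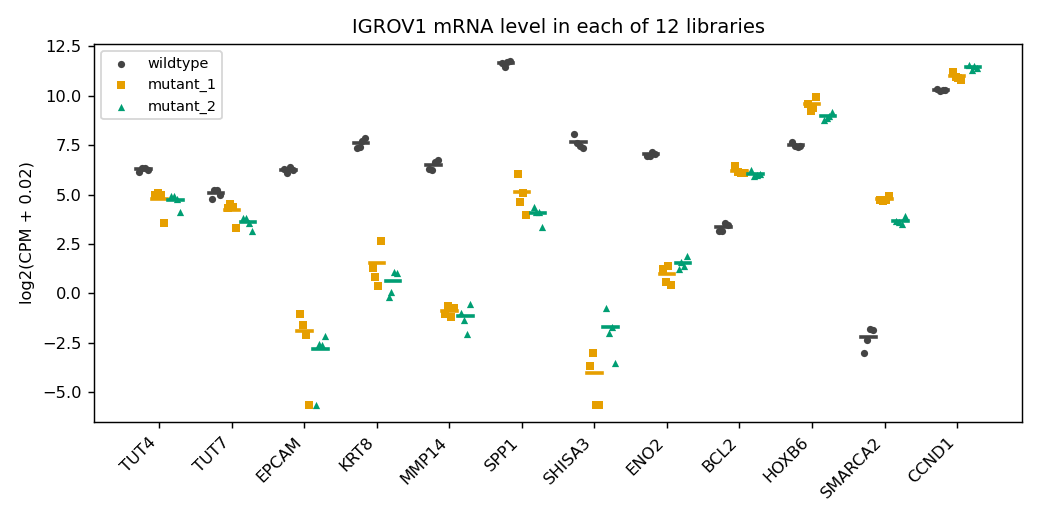
CPM in each of the 12 libraries for 12 shared genes, coloured by group and plotted as log2(CPM + 0.02), with bars at the group means. For EPCAM, SHISA3 and SPP1 all 8 mutant libraries lie far below the 4 wildtype libraries, and for SMARCA2 and BCL2 they lie above.

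Among the genes with most reads, SPP1, the secreted phosphoprotein osteopontin, changed most. It was at 3250, 2788, 3307 and 3444 CPM in wildtype. It was at 66.1, 24.4, 34.4 and 15.6 CPM in mutant_1 and at 20.6, 17.6, 17.3 and 10.4 CPM in mutant_2. The groups were far apart, and pooled reads were 82.7-fold and 189-fold lower (edgeR adjusted p = 6.46e-08 and 2.46e-08). The actin crosslinker FLNA fell by 1.12 ± 0.18 and by 1.60 ± 0.18, the laminin chain LAMC1 by 0.82 ± 0.17 and by 0.87 ± 0.17, the actin-sequestering TMSB10 by 0.81 ± 0.18 and by 0.89 ± 0.18, and the G protein subunit GNAS by 0.52 ± 0.13 and by 0.68 ± 0.13. In the other direction CCND1, cyclin D1, rose from 1212 to 1290 CPM in wildtype to 1787 to 2385 CPM in mutant_1 and 2508 to 3023 CPM in mutant_2. The ribosomal protein gene RPS24 rose by 0.98 ± 0.13 and 0.63 ± 0.13, the phosphate transporter SLC34A2 by 1.23 ± 0.17 and 0.84 ± 0.17, the membrane protein ITM2B by 1.33 ± 0.08 and 0.69 ± 0.08, and the scaffold AHNAK by 0.63 ± 0.12 and 0.47 ± 0.12. The call of GNAS in mutant_1 and of AHNAK in mutant_2 was lost without any single wildtype library.

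Gene lists were read against the share of all tested genes that rose (6.65%) or fell (8.94%) in both clones, whose median fold change was 0.01 in each clone. Counts without the mutant libraries numbered 4 are to be read against the larger shares of that fit, 11.7% and 15%. The list of epithelial junction and identity genes stood lowest. Of 34 tested members, 19 fell in both clones (55.9%) and none rose, and the medians were -1.98 in mutant_1 and -1.87 in mutant_2. Leaving out the mutant libraries numbered 4 made this 23 of 35 tested members (65.7%). Beside EPCAM, PKP3 and ST14, the members that fell included KRT8, a simple-epithelium keratin, from 167 to 229 CPM in wildtype to at most 6.26 CPM, the protease inhibitors SPINT1 (-5.49 and -5.69) and SPINT2 (-5.62 and -5.02), the tight junction genes CLDN1 (-4.77 and -3.99) and MARVELD2 (-4.54 and -4.37), and ESRP2, an epithelial splicing regulator (-8.55 and -4.32). CDH1, E-cadherin, was low already in wildtype at 3.6 to 5.42 CPM. It fell to 0.0579 to 3.21 CPM in mutant_1 and 0.0751 to 0.366 CPM in mutant_2. The mutant_1 call was lost with DESeq2 and when any wildtype library was left out. Without the mutant libraries numbered 4 the mutant_1 log2 value was -4.61, against -2.75 over all libraries. Other members were not called, among them the claudins CLDN3, CLDN4 and CLDN7. KRT18, the usual partner of KRT8, fell in mutant_2 alone, by 2.80 ± 0.24, while mutant_1 held 197 to 442 CPM against 193 to 252 in wildtype.

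Of 25 mesenchymal genes and regulators of the epithelial to mesenchymal transition (EMT), 11 could be tested. In both clones 2 of them rose (18.2%), and ZEB1 joined them without the mutant libraries numbered 4. The 2 were ACTA2, a smooth muscle actin (1.64 ± 0.21 and 1.08 ± 0.21), and the fibrillar collagen COL5A1 (2.04 ± 0.20 and 1.32 ± 0.20). None fell in both. TAGLN, an actin-binding protein of contractile cells, passed with opposite signs (2.82 and -1.33), as did COL1A1 (-0.68 and 0.71). ZEB1, a repressor of epithelial genes, was at 35.7, 41.4, 41 and 37.3 CPM in wildtype. It was at 46.1, 56.5, 51.2 and 13.6 CPM in mutant_1 and at 86, 80.7, 67.5 and 38.2 CPM in mutant_2. ZEB1 was not called over all libraries, but the 6 mutant libraries numbered 1 to 3 all lay above the wildtype ones, and without those numbered 4 it rose by 0.40 and 1.0 (edgeR adjusted p = 0.00282 and 2.81e-07). ZEB2 and CDH2, N-cadherin, averaged at most 0.0841 CPM. VIM, the intermediate filament vimentin, was at 994 to 1216 CPM in wildtype and fell by 0.48 ± 0.10 in mutant_1 alone. VIM passed with opposite signs in the clones when the mutant libraries numbered 4 were left out.

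Of 38 tested genes of migration and wound healing, 20 fell in both clones (52.6%) and 1 rose. The study drew attention to this theme on these same samples, so the list is not independent evidence of its direction. Medians were -1.71 and -1.11, and 21 fell without the mutant libraries numbered 4. MMP14, a membrane-bound collagenase, was at 79.6, 76.3, 100 and 106 CPM in wildtype and between 0.22 and 0.674 CPM in all 8 mutant libraries. MMP7, a secreted protease, went from 49.2 to 65.5 CPM to at most 0.525 CPM. The laminin chains LAMA3 (-3.67 and -2.85) and LAMB3 (-1.75 and -2.64) fell, and the laminin receptor subunits ITGA6 (-2.26 and -1.04) and ITGB4 (-6.74 and -7.58) fell as well. Further decreases were seen in TFPI, an inhibitor of coagulation (-6.33 and -5.86), the hyaluronan receptor CD44 (-2.97 and -2.53) and FERMT1, an integrin activator (-5.27 and -5.63). The 1 member that rose was the integrin subunit ITGB3 (0.91 ± 0.14 and 0.73 ± 0.14). ITGA1 passed with opposite signs (-1.91 and 2.74), and ITGB1, ITGAV and ITGA5 were not called.

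HOX genes, which set position along the body axis and lie in 4 clusters, held the largest share of shared increases among the lists. Of 30 tested HOX genes and antisense RNAs, 12 rose in both clones (40%) and none fell, with medians of 1.22 and 0.86, and 14 rose without the mutant libraries numbered 4. HOXB6 was at 204, 177, 173 and 176 CPM in wildtype. It was at 762, 610, 668 and 987 CPM in mutant_1 and at 431, 467, 512 and 581 CPM in mutant_2. HOXB6 therefore rose by 2.05 ± 0.15 and 1.45 ± 0.15 with no overlap (edgeR adjusted p = 2.36e-07 and 5.3e-06), and its neighbour HOXB4 rose by 1.71 ± 0.17 and 1.39 ± 0.17. HOXC9 rose by 2.04 ± 0.17 and 2.91 ± 0.16 from 1.04 to 1.28 CPM. HOXA13 (4.16 and 3.23) and HOXC13 (5.87 and 6.72) rose from 0.36 CPM or less in wildtype to no more than 4.23 CPM, so their folds rest on few wildtype reads.

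Counts per cluster were small, and a difference between clusters was not tested. The HOXB cluster on chromosome 17 had 6 of 9 tested genes higher in both clones (medians 1.36 and 1.07) and the HOXC cluster on chromosome 12 had 3 of 5 (1.85 and 3.0). The HOXA cluster had 1 of 5, and the HOXD cluster on chromosome 2 had none of 6, with medians of -1.34 and -0.25. The antisense RNA HOXB-AS3 (2.44 and -1.77) and HOXB9 (0.63 and -0.49) passed with opposite signs, and HOXB5 and HOXB7 rose in mutant_1 alone. As strand setting in counting is not given in the sources used here, an antisense RNA and its overlapping partner are uncertain.

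**Figure D4:**
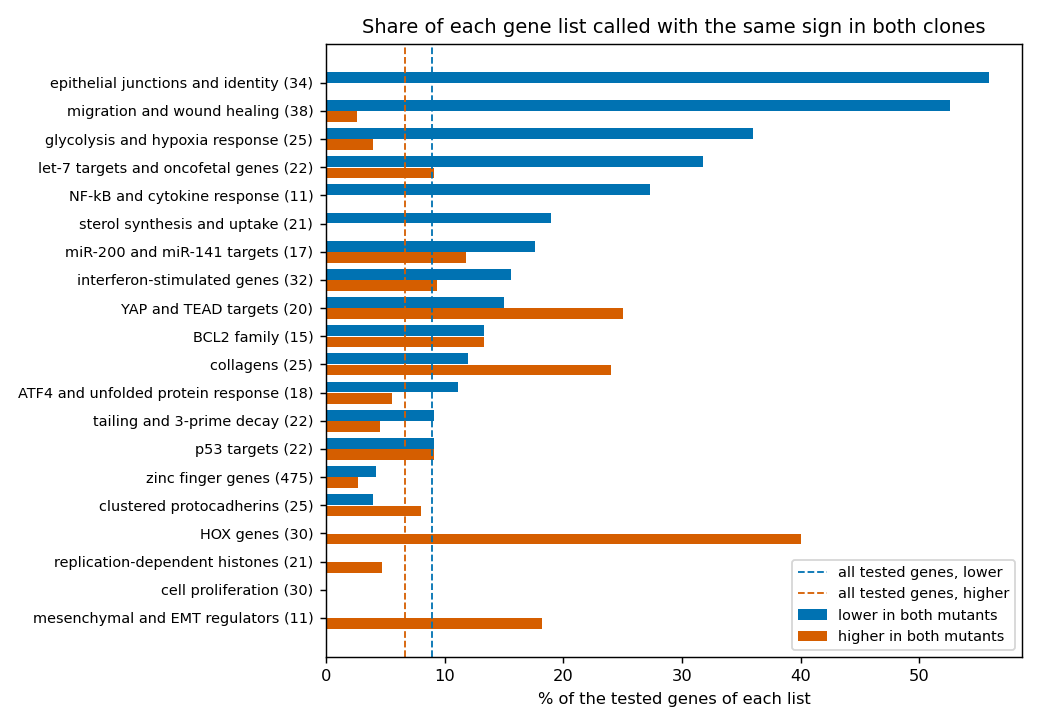
For each gene list, the share of tested members that rose and that fell in both clones (percent), with the share over all 13932 tested genes drawn as lines at 6.65% and 8.94%. The epithelial (55.9% lower) and migration (52.6% lower) lists and the HOX genes (40% higher) lie furthest from the lines.

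Of 25 tested genes of glycolysis and the hypoxia response, 9 fell in both clones (36%, against 8.94% of all genes) and 1 rose. Without the mutant libraries numbered 4, 16 fell (64%, against 15% of all genes in that fit). The difference from all genes was not tested. ENO2, the neuronal enolase, was at 125, 125, 145 and 135 CPM in wildtype and between 1.31 and 3.64 CPM in all mutant libraries. PFKFB4, which makes an activator of glycolytic flux, fell by 2.32 ± 0.16 and by 2.52 ± 0.16, and the glucose carrier SLC2A1 fell by 1.03 ± 0.18 and by 1.84 ± 0.18. LDHA, lactate dehydrogenase, also fell (-0.49 and -0.82), and the phosphofructokinase genes PFKL (-1.27 and -0.79) and PFKP (-0.91 and -1.01) fell too. EGLN3, an oxygen-sensing hydroxylase that hypoxia induces, rose by 2.35 ± 0.28 and 2.58 ± 0.27 from 0.416 CPM or less. PGK1, PKM and HK1 were not called.

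Of 21 genes of sterol synthesis and uptake, 4 fell in both clones (19%), none rose, and 11 fell without the mutant libraries numbered 4 (52.4%, against 15% of all genes in that fit). The medians were -0.49 and -0.43. DHCR7, a late enzyme of cholesterol synthesis, was at 131 to 196 CPM in wildtype, 85.6 to 118 CPM in mutant_1 and 81 to 92.1 CPM in mutant_2, and fell by 0.66 ± 0.14 and by 0.88 ± 0.14 (edgeR adjusted p = 0.00182 and 0.000201). SREBF2, a transcription factor of the pathway, was not called (-0.12 and -0.39).

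The let-7 targets and oncofetal genes were of interest because TUT4 and TUT7 act on the let-7 precursor where LIN28A is present. In these IGROV1 mutants the study did not observe a trend of rising let-7 miRNAs among those with a LIN28A-binding motif. Whether let-7 levels bear on the genes below was not tested. Of 22 tested, 7 fell in both clones (31.8%) and 2 rose, with medians of -0.32 and -0.17. PLAGL1, an imprinted zinc finger gene, fell by 3.89 ± 0.21 and by 3.90 ± 0.20 from 46.1 to 62.8 CPM. CCND2, cyclin D2, and MYCN fell from at most 9.25 CPM, by 3.29 and by 5.10 for CCND2 and by 3.31 and by 1.59 for MYCN. The chromatin protein HMGA1 fell by 0.92 ± 0.15 and by 1.40 ± 0.16, and NRAS (-1.0 and -0.84), IGF1R (-0.84 and -0.77) and ARID3B (-0.89 and -0.56) moved the same way. Against them stood CCND1, described above, and the RNA-binding protein IGF2BP1 (0.67 ± 0.09 and 0.68 ± 0.09). HMGA2, MYC and DICER1 were not called.

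Among 17 tested targets of miR-200 and miR-141, 2 rose (11.8%) and 3 fell (17.6%) in both clones, against 6.65% and 8.94% of all genes. The difference from all genes was not tested. The study reported the rise of BCL2 on these same samples, so its direction here is not independent evidence. The apoptosis inhibitor BCL2 was at 9, 8.76, 11.8 and 11.1 CPM in wildtype. It was at 86.6, 70, 67.4 and 67 CPM in mutant_1 and at 75.8, 61.5, 63.4 and 66.5 CPM in mutant_2. The mutant libraries all lay above the wildtype ones, and BCL2 rose by 2.84 ± 0.14 and 2.71 ± 0.14 (edgeR adjusted p = 7.31e-09 and 9.35e-09). WASF3, an actin regulator, also rose (1.23 and 1.11). ETS1, a transcription factor, fell from 15.1 to 20.8 CPM to at most 0.404 CPM, the tubulin TUBB3 fell by 2.77 ± 0.29 and by 3.17 ± 0.30, and the Notch ligand JAG1 fell by 1.52 ± 0.11 and by 1.57 ± 0.11.

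Within the BCL2 family of 15 tested genes, 2 rose and 2 fell in both clones (13.3% each). Beside BCL2, the pro-apoptotic BCL2L11 (BIM) rose by 0.81 ± 0.12 and 0.87 ± 0.11. The pro-apoptotic BIK fell by 2.06 ± 0.26 and by 3.26 ± 0.27, and BID fell by 0.57 ± 0.11 and by 0.60 ± 0.11. MCL1 (0.07 and -0.05) and BAX (0.13 and -0.21) were not called. Of 22 p53 targets 2 rose and 2 fell in both clones (9.09% each), near the shares over all genes. Without the mutant libraries numbered 4, 6 rose (27.3%, against 11.7% of all genes) and 4 fell (18.2%, against 15%). CDKN1A, the cell cycle inhibitor p21, rose from 148 to 197 CPM to 394 to 842 CPM in mutant_1 and 285 to 485 CPM in mutant_2, a mutant_2 call that was lost in the fit of all 36 mRNA libraries and without wildtype library 1. TP53INP1 rose by 1.62 ± 0.19 and 1.20 ± 0.19. BTG2 fell by 1.92 ± 0.17 and by 1.67 ± 0.16, and SPATA18 fell from at most 3.77 CPM to near 0. MDM2 (-0.42 and -0.30) and BAX were not called.

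Of 22 tested enzymes and cofactors of tailing and 3′ decay, 1 rose (4.55%) and 2 fell (9.09%) in both clones, near the shares over all genes, and the 2 were TUT4 and TUT7. FAM46C, a cytoplasmic poly(A) polymerase, rose by 1.87 ± 0.21 and 2.19 ± 0.20 from 1.12 to 1.97 CPM. DIS3L2, the exonuclease that degrades uridylated RNA, fell in mutant_1 alone by 0.76 ± 0.19 (edgeR adjusted p = 0.00555, lost without any single wildtype library), and the deadenylase PARN fell in mutant_2 alone by 0.76 ± 0.10. TUT1 (0.09 and 0.13), XRN1 (-0.54 and -0.16) and LSM1 (0.08 and 0.36) were not called.

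None of 30 proliferation genes was shared in either direction, against 6.65% and 8.94% of all genes. MKI67, a marker of cycling cells, averaged 394, 464 and 599 CPM and was not called (edgeR adjusted p = 0.558 and 0.134). The mutant libraries numbered 4 held 201 and 338 CPM of it, while the other 6 mutant libraries held 485 to 711 CPM, all above the 333 to 435 CPM of wildtype. AURKB, a mitotic kinase, passed with opposite signs (-0.38 and 0.43), BIRC5 (-0.11 and 0.45) and UBE2C (-0.22 and 0.45) rose in mutant_2 alone, and MYBL2 fell in mutant_1 alone (-1.05 and -0.13). Several long cell cycle transcripts were low in the mutant libraries numbered 4. BRCA2 was at 12.6, 16.7, 10.9 and 1.31 CPM in mutant_1 and at 24.6, 23.2, 22.3 and 3.84 CPM in mutant_2. Without those libraries MKI67 rose by 0.48 and 0.79 (edgeR adjusted p = 0.00152 and 1.49e-05), and 2 proliferation genes fell in both clones.

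YAP and TEAD target genes moved both ways, 5 of 20 higher (25%) and 3 lower (15%). ANKRD1 fell from 34.5 to 49.7 CPM to at most 1.05 CPM, the receptor kinase AXL fell by 4.81 ± 0.38 and by 3.91 ± 0.32, and tissue factor F3 fell by 1.82 ± 0.15 and by 3.05 ± 0.16. FOXF2, a mesenchymal transcription factor, rose by 3.92 ± 0.22 and 4.10 ± 0.22, and FJX1 (1.49 and 3.17), PTPN14 (1.46 and 1.12), LATS2 and AJUBA rose too. CTGF (1.76 and 1.38) passed in mutant_1 and CYR61 (0.18 and 1.01) in mutant_2, without the clones being distinguished. Of 32 interferon-stimulated genes 3 rose (9.38%) and 5 fell (15.6%), against 6.65% and 8.94% of all genes. EPSTI1 led them, at 0.638 to 1.19 CPM in wildtype (68 reads) and with no read in any mutant library, so that with the floor of 3 reads it was at least 16.8-fold and 24.2-fold lower. The others included OASL (2.27 ± 0.43 and 2.44 ± 0.41) and ISG20 (-1.94 ± 0.31 and -2.40 ± 0.31) and HERC6 (-1.08 ± 0.27 and -3.09 ± 0.32). The mutant_1 call of HERC6 was lost with a block on replicate number and without most single libraries of wildtype and mutant_1. The medians of the list were 0.12 and 0.03. Without the mutant libraries numbered 4, the genes that rose and fell in both clones numbered 6 and 3 for YAP and TEAD targets, 5 and 8 for interferon-stimulated genes, 2 and 8 for let-7 targets, 3 and 3 for miR-200 and miR-141 targets, 2 and 4 for the BCL2 family, and 1 and 3 for tailing and decay, against 11.7% and 15% of all genes.

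Single-clone changes included some as deep as the shared ones. By the same levels of 5 and 0.5 CPM, 8 genes (0.0574%) were lost and 7 (0.0502%) gained in mutant_1 alone, and 6 (0.0431%) were lost and 7 (0.0502%) gained in mutant_2 alone. NDNF, a secreted neurotrophic factor, was at 0 to 0.156 CPM in wildtype and 0 to 0.135 CPM in mutant_2 but at 46 to 68.8 CPM in mutant_1, and the clones differed by 9.58 (edgeR adjusted p = 1.8e-08). KDR, a VEGF receptor, was at 13.3 to 42.8 CPM in mutant_1 and at or below 0.113 CPM in the other groups, and MAT1A, a methionine adenosyltransferase, rose by 5.80 ± 0.30. In the other direction, HSD17B2, a steroid dehydrogenase, lay at 37.8 to 75.7 CPM in wildtype, 29.7 to 47.7 CPM in mutant_2 and at most 0.316 CPM in mutant_1. SLITRK5, a neuronal membrane protein, fell by 5.0 ± 0.33 in mutant_1 alone, as did DLC1, a GTPase-activating tumour suppressor, by 7.99 ± 0.31 and the endopeptidase ECEL1 by 5.42 ± 0.32. NLGN4X, a synaptic adhesion protein, was at 0.146 to 0.347 CPM in mutant_1 against 94.5 to 109 CPM in wildtype and 87.8 to 132 CPM in mutant_2. HS3ST3B1 and its neighbour MGC12916 were nearly absent from wildtype and reached 82.9 and 135 CPM in mutant_1.

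In mutant_2 alone DHRS2, a short-chain dehydrogenase, was at 43.1 to 57.4 CPM against 0.405 to 0.86 CPM in the other groups. C10orf105, C1orf95, the G protein subunit GNG4 and PDGFRL rose by 2.99 to 3.41. The translational regulator CPEB2 fell by 6.0 ± 0.47, to 0.0674 to 0.15 CPM from 6.55 to 9.97 CPM in wildtype, and mutant_1 held 3.06 to 12.3 CPM. VAMP8, a vesicle fusion protein, fell by 3.91 ± 0.27, ARHGAP4 by 3.52 ± 0.26, KLHDC9 by 3.51 ± 0.25 and AHNAK2 by 3.37 ± 0.23. Without the mutant libraries numbered 4, 551 of the 709 mutant_1 genes and 575 of the 705 mutant_2 genes kept their class. HS3ST3B1 and MGC12916 then rose in both clones, DLC1, ECEL1, VAMP8 and AHNAK2 fell in both, and NLGN4X passed with opposite signs.

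Opposite changes were led by ADRA2A, an adrenergic receptor, at 8.64 to 19 CPM in wildtype, 0.984 to 2.36 CPM in mutant_1 and 49.2 to 86.2 CPM in mutant_2. HSPB8, a small heat shock protein, rose by 4.39 ± 0.34 in mutant_1 and fell by 2.42 ± 0.41 in mutant_2. ZNF385B followed ADRA2A (-2.13 ± 0.28 and 2.40 ± 0.22), and GRIK2, a kainate receptor subunit, followed HSPB8 (2.79 ± 0.19 and -2.10 ± 0.25). Without the mutant libraries numbered 4, 343 genes passed with opposite signs, 126 of the 128 among them.

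The same genes had been mutated in DU145, a prostate carcinoma line without LIN28A, with 4 wildtype and 8 mutant libraries. A test of the difference between the lines' responses passed for 3592 of 14935 genes (24.1%), of which 1683 (11.3%) were higher in IGROV1 and 1909 (12.8%) lower, and for 4612 without the IGROV1 mutant libraries numbered 4. Of the 1245 genes lower in both IGROV1 clones, 1220 entered this test, 927 differed from DU145 in the direction of the IGROV1 change, and 222 were called lower and 93 higher in the DU145 mutants. Of the 926 higher genes, 906 entered it, 565 differed in that direction, and 107 were called higher and 91 lower in DU145. The IGROV1 calls needed both clones to pass, while a DU145 call is on the average of its 2 mutants, so the calls are of unlike kinds. The genes were chosen on the same IGROV1 libraries that enter the test of the difference, which favours the direction of the IGROV1 change, so the 927 and 565 are descriptions only. Calls over all genes in the DU145 mutants were 1115 higher (7.47%) and 1503 lower (10.1%). The DU145 wildtype libraries were at 4 successive passages ending at 160 and its mutants at passages 8 to 12, so passage number and mutation cannot be told apart in that line. The lines also differed in tissue, medium, passage and starting levels, and these cannot be told apart from LIN28A.

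OCIAD2 showed the contrast most plainly, since it was at 53.7 to 75.6 CPM in DU145 wildtype and 57.8 to 91.5 CPM across both DU145 mutants, while it was silent in the IGROV1 clones. MFAP2 was at 2.5 to 3.9 CPM in DU145 wildtype and 4.52 to 8 CPM in its mutants, and LPAR3 at 1.14 to 2.6 and 1.59 to 2.57 CPM. SFRP1, a secreted Wnt antagonist, rose in the IGROV1 clones by 1.88 ± 0.22 and 3.13 ± 0.22. In DU145 it was at 37.5 to 57.1 CPM in wildtype, 19.3 to 30.6 CPM in mutant_1 and at most 0.0723 CPM in mutant_2. CPS1, the entry enzyme of the urea cycle, was at 0.312 CPM or less in all DU145 libraries. In IGROV1 it was at 0.206, 0.232, 0.198 and 0.052 CPM in wildtype, at 128, 129, 128 and 126 CPM in mutant_1 and at 0.726, 1.32, 1.61 and 1.48 CPM in mutant_2. BMP2 and MMP7 were nearly absent from every DU145 library, at 0.258 CPM or less, so a decrease there could not have been seen.

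Shared changes were not spread evenly over the chromosomes. On chromosome 17, 14.3% of 856 tested genes rose in both clones, with medians of 0.24 and 0.27, against 6.65% over all genes. On chromosome 18, 20.9% of 182 fell, and on chromosome 15, 15.8% of 461, against 8.94%. Running medians over 50 neighbouring tested genes reached 0.63 and 0.66 between AMZ2P1 and USH1G (chromosome 17, 64.97 to 74.92 Mb), where 19 genes rose and 1 fell in both clones. They reached -0.59 and -0.55 between NDC80 and RBBP8 on chromosome 18 and -0.61 and -0.47 between UGT2B7 and HELQ on chromosome 4. Over all 1271 windows, the 5th and 95th percentiles of the median were -0.49 and 0.37 in mutant_1 and -0.37 and 0.30 in mutant_2. The windows holding HOXB4 had medians of 0.34 to 0.62 and 0.37 to 0.59, below those of the HOXB genes themselves.

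The clones also differed from each other by region. Between DLX1 and PDE1A on chromosome 2, the stretch that holds the HOXD cluster, the median was -0.66 in mutant_1 and 0.09 in mutant_2. Between BVES and TSPYL1 on chromosome 6 it was 0.40 and -0.22. DNA copy number was not measured, and whether it moves with these medians was not tested.

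**Figure D5:**
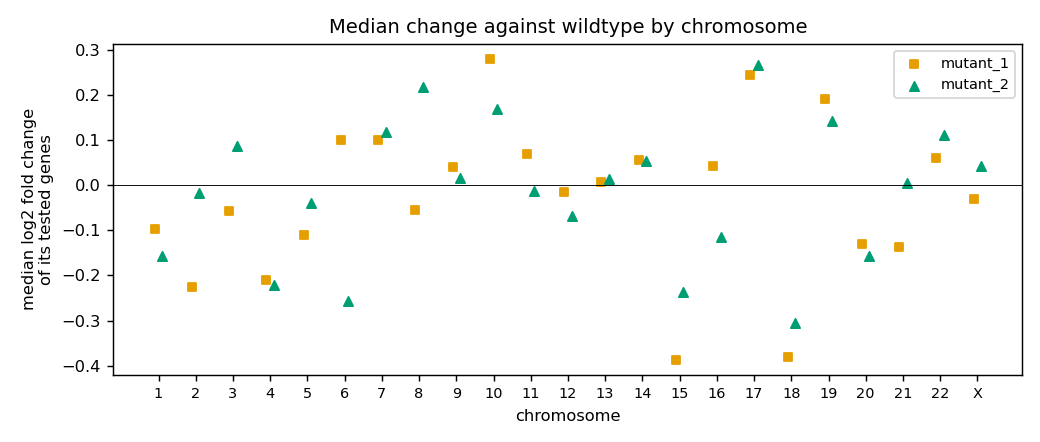
Median log2 fold change of the tested genes of each chromosome in mutant_1 and mutant_2. Chromosome 17 is raised in both clones (0.24 and 0.27), chromosomes 15 and 18 are lowered in both, and chromosome 6 differs between the clones.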

How the data were processed

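Per the labels and methods, poly(A) RNA was isolated with oligo dT beads and made into stranded libraries, and the authors trimmed reads with Trimmomatic 0.39, aligned them to hg38 with HISAT2 2.1.0 and deposited counts per gene from HTSeq, whose strand setting and annotation are not given in the sources used here. The 5 closing lines of each file (reads on no feature, ambiguous, unaligned or not unique), 26.0% to 30.1% of each file's total, were left out. Of 26485 genes, 13932 passed filterByExpr and were tested in 1 fit of the 12 libraries with edgeR 4.0.16 (R 4.3.3, TMM factors 0.888 to 1.06, quasi-likelihood test), after the script had been tested on simulated data. The DU145 comparison used a fit of 24 libraries with an interaction of line and mutation. Counting limits precision at low levels, and intervals and floors cover counting error only.

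Named genes were those targeted, the 12 largest shared changes in each direction with a mean of at least 5 CPM (by the smaller fold change of the clones), the 5 largest single-clone changes in each direction, 4 opposite genes, the 5 shared genes with most reads in each direction, up to 4 shared members of each list with defining members that did not pass, and the 5 largest differences from DU145 in each direction. Other members of the lists were named after their values were seen. Some genes that the rule names are not reported here. The study used DESeq2, which was run here (1.42.0) as an alternative. The members and lists were chosen with earlier results of these data known. Symbols were matched to RefSeq (GRCh38.p14) for 23752 genes directly and for 1566 by synonym.

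Alternatives were other scaling, other filters, DESeq2, other thresholds and a block on replicate number. Others were a fit of all 36 mRNA libraries, leaving out each library, and a term for higher against lower replicate numbers.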

Additional observations from a re-analysis of the deposited data

Results flagged for a closer look

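In a group of 4 libraries, 1 library stood far from the other 3 for 35 of 363 combinations of gene and group, where chance flags about 1 in 20 groups of normally spread values. That rate does not hold near 0 reads: in 6 of the 35 the other 3 libraries held no read, so that 1 or a few reads were enough. Groups with no read in any library are among the 363 and could not be flagged. The mutant libraries numbered 4 made up 16 of the 35.

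In mutant_1 the library numbered 4 was low for TUT4 (ZCCHC11), at 11.9 CPM, TUT7 (ZCCHC6), at 9.76 CPM, EYA4, at 9.62 CPM, HS3ST3B1, at 32.5 CPM, MGC12916, at 49.1 CPM, and BIRC3, at 0.728 CPM. It was high for AFF3, at 32.5 CPM, the phosphate transporter SLC34A2, at 1986 CPM, and ETS1, at 0.146 CPM where the others held no read. In mutant_2 the library numbered 4 was low for NLGN4X, at 87.8 CPM. It was high for HBE1, at 35.2 CPM, GAS1, at 17.1 CPM, OCIAD2, at 0.135 CPM, DIS3L2, at 33.8 CPM, VIM, at 1440 CPM, and the histone HIST2H2BE, at 56.4 CPM. For TUT4 the other mutant_1 libraries lay between 31.2 and 33.5 CPM.

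The mutant_1 library numbered 1 was high for BCL2, at 86.6 CPM, and ITM2B, at 1669 CPM, and the one numbered 2 for LPAR3, at 0.0525 CPM. The mutant_2 library numbered 1 was low for EYA4, at 2.37 CPM, and high for MYCN, at 3.24 CPM, and SPATA18, at 0.0484 CPM. Among wildtype libraries, number 1 was high for HS3ST3B1 (0.154 CPM), ECEL1 (17.2 CPM), HOXB6 (204 CPM) and VIM (1216 CPM) and low for AHNAK2 (158.5 CPM) and COL5A3 (0.103 CPM). Number 2 was high for DGKK (0.116 CPM) and HOXC13 (0.058 CPM) and low for MFAP2 (18 CPM) and PSAT1 (716 CPM). Number 3 was high for OCIAD2 (35 CPM). Number 4 was high for JAG1 (517 CPM) and low for CPS1 (0.052 CPM).

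The response of IGROV1 to the mutations differed from that of DU145 for 3592 genes. Among shared IGROV1 changes the response was higher than in DU145 by 15.51 on the log2 scale for OLFM1, 8.2 for SFRP1, 7.6 for AFF3, 7.4 for EYA4 and 6.74 for CPS1. It was lower, with differences of -11.61 for BMP2, -11.11 for OCIAD2, -11.03 for MFAP2, -10.01 for LPAR3 and -9.90 for MMP7. OLFM1 had 53 reads in DU145 wildtype and none in its mutants, and BMP2 and MMP7 had 1 read each in DU145 wildtype. SFRP1 had 1 read and CPS1 3 reads in DU145 mutant_2, EYA4 had 3 reads in IGROV1 wildtype, and OCIAD2, MFAP2 and LPAR3 had none in an IGROV1 clone. The values of these genes depend on the prior count of the fit and are no bounds.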

How the results depend on the processing

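DESeq2 size factors, library totals, the 2 other filters and DESeq2 itself kept every shared, single-clone, opposite and between-clone count within 1.5 times. So did the term for higher against lower replicate numbers and the fit of all 36 mRNA libraries. Counts were 842 to 1215 higher and 1059 to 1546 lower in both clones. DESeq2 shared 919 of the 926 higher and 1241 of the 1245 lower genes. At an adjusted p below 0.05, counts were 1584 higher in both, 1108 in mutant_1 only, 1087 in mutant_2 only, 250 opposite and 3806 differing between the clones. With a fold change of at least 2 required as well, they were 451 higher and 805 lower in both, 403 in mutant_1 only, 364 in mutant_2 only, 49 opposite, 1275 differing between the clones and 2104 differing from DU145. Without both mutant libraries numbered 4, an alternative chosen after seeing the data, they were 1659 higher and 2116 lower in both, 1254 in mutant_1 only, 1439 in mutant_2 only, 343 opposite and 4549 differing between the clones, and the cause was not tested.

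Leaving out each of the 12 libraries gave 644 to 1109 genes higher and 1037 to 1513 lower in both, 542 to 917 in mutant_1 only, 507 to 976 in mutant_2 only, 70 to 162 opposite, 1733 to 2799 differing between the clones and 3086 to 4027 differing from DU145. Opposite counts were 70 to 84 without any single wildtype library, 70 being without number 3, and 85 without the mutant_2 library numbered 3. With a block on the replicate number, 1087 genes were higher and 1444 lower in both, 868 changed in mutant_1 only, 859 in mutant_2 only, 141 were opposite, 2812 differed between the clones and 4019 differed from DU145. The numbers do not pair the samples across the 3 groups. Deviations of same-numbered libraries correlated at -0.23 to 0.79, above 0.1 in 6 of 12 pairs. In both other groups at once, 2 of 12 libraries correlated best with their own number. The mutant libraries numbered 2 and those numbered 4 each correlated highest with their own number in the other clone (0.57 and 0.79). Between mutant_1 and mutant_2 all 4 same-numbered pairs were above 0.1 (0.13 to 0.79), the highest being the libraries numbered 4.

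Of 5208 values of named genes under all alternatives, 5114 kept sign and call, 94 lost the call and 0 changed sign; the 2-fold requirement accounts for 30 of the losses. The median over all genes of the difference in mean log2 CPM between mutant_1 and wildtype, which is another quantity than the fitted fold change, was -0.08 with library totals and -0.02 with TMM. The shallowest library held 7729672 reads on genes, which limits what can be said of genes with few reads.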

Other observations

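Of 25 tested collagen symbols 6 rose in both clones (24%) and 3 fell (12%). COL5A3, a fibrillar collagen, rose from 0.103 to 0.522 CPM in wildtype to 24.2 to 41.1 CPM in mutant_1 and 2.37 to 5.19 CPM in mutant_2. COL10A1, COL6A1, COL6A2 and COL26A1 rose with COL5A1, while COL4A4 of basement membranes fell by 2.75 ± 0.24 and by 4.03 ± 0.26 and COL17A1 of hemidesmosomes fell by 1.53 ± 0.16 and by 2.56 ± 0.17. The remaining decrease counted there, COL4A3BP, is a ceramide transporter and no collagen. Without the mutant libraries numbered 4, 9 rose and 5 fell.

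Of 11 cytokine and NF-kB response genes 3 fell (27.3%, against 8.94% of all genes) and none rose. Without the mutant libraries numbered 4, 5 of 12 tested fell (41.7%). The 3 over all libraries were the apoptosis inhibitor BIRC3 (-2.87 ± 0.31 and -2.76 ± 0.30), the cytokine LIF (-1.29 ± 0.14 and -1.73 ± 0.14) and the cytokine IL32 (-1.66 ± 0.30 and -1.16 ± 0.27). The mutant_2 call of IL32 was lost in the fit of all 36 mRNA libraries and without most single libraries of wildtype and mutant_2. Among 18 genes of the ATF4 and unfolded protein response 1 rose (5.56%) and 2 fell (11.1%), near the 6.65% and 8.94% of all genes. ATF3 (1.5 and 1.04) rose, and TRIB3 (-1.59 and -1.17) and PSAT1 (-0.59 and -0.86) fell. In this list 6 rose without the mutant libraries numbered 4 (33.3%, against 11.7% of all genes in that fit), 4 with DESeq2 and 3 with the replicate block. The calls of ATF3 and TRIB3 in mutant_2 and of PSAT1 in mutant_1 were lost in the fit of all 36 mRNA libraries. Of 21 histone genes counted in poly(A) RNA 1 rose (4.76%), HIST2H2BE (1.34 and 2.62). Of 25 clustered protocadherins 2 rose (8%) and 1 fell (4%), against 6.65% and 8.94% of all genes. Histones higher in both clones numbered 4 both with DESeq2 and without the mutant libraries numbered 4, where 1 fell. Protocadherins higher in both numbered 4 with DESeq2, and 6 of 26 tested (23.1%) without those libraries. Zinc finger genes stood below the shares over all genes, 13 of 475 higher (2.74%) and 20 lower (4.21%), and 21 were higher with DESeq2. Without the mutant libraries numbered 4, 32 of 478 were higher (6.69%) and 52 lower (10.9%), below the 11.7% and 15% of all genes in that fit. The cancer-testis pattern matched 1 tested gene, SSX2IP, which is no member of that antigen family, was not called and fell in both clones without those libraries.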
